A study of Homo sapiens with 9 samples.

Results

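The genes described here encode transcription factors of the epithelial-mesenchymal transition (EMT), the programme by which epithelial cells loosen their junctions and become motile. The members were taken by gene name from the deposited table: TWIST1, TWIST2, SNAI1, SNAI2, SNAI3, ZEB1, ZEB2, FOXC1, PRRX1 and GRHL2. Of these 10 names, 9 have a row among the 32378 genes of the table, and all 9 passed the filter on low counts that left 16450 genes for testing. No row carries the name GRHL2, and that gene was not analysed here. RNA was sequenced from SKOV3 cells, an established cell line from a human ovarian cancer, in 9 libraries: 3 labelled Carbo+COM33, 3 labelled Carbo and 3 labelled control. All of them are from this 1 line. The title of the series names carboplatin, a DNA-crosslinking platinum drug, and Carbo is taken to stand for it; for COM33 the sources give the code name alone. Doses and times are not given in the sources used here, and no group received COM33 alone. The title asks whether COM33 turns round EMT expression brought about by carboplatin. Replicates are numbered 1 to 3 in each group, and the labels do not say whether the numbers mark separate cultures, so p-values measure the spread between these libraries, which may be technical.

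The members fall into families by how they bind DNA. TWIST1 and TWIST2 are basic helix-loop-helix proteins that act as dimers with E proteins such as TCF3 and are held back by the ID proteins, which take up E proteins without binding DNA. SNAI1 (Snail), SNAI2 (Slug) and SNAI3 are zinc finger repressors, and ZEB1 and ZEB2 combine zinc fingers with a homeodomain; all of these bind E-boxes such as CAGGTG in front of epithelial genes, with the E-cadherin gene CDH1 as the best known target. FOXC1 is a forkhead factor and PRRX1 a paired-type homeobox factor, both tied to the mesenchymal state, while GRHL2 maintains epithelial identity and opposes ZEB1. The microRNAs of the miR-200 family repress ZEB1 and ZEB2, and the ZEB factors repress the miR-200 genes in return.

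Sequences are shown for ZEB1 and FOXC1, the members with a promoter entry on which most of the values below turn, and for the microRNAs that restrain the ZEB factors. Promoter windows and microRNAs were taken from RefSeq (GRCh38.p14); 5 of the 10 members, FOXC1, PRRX1, TWIST2, ZEB1 and ZEB2, have a window. The 250 bases before each start were searched for the E-box CAGGTG, and for CACCTG as the same motif on the other strand. These 6 letters were in 17.5% of the 35116 windows of the table. They were in 2 of the 7 windows of ZEB1, 3 times in all, and in none of the single windows of FOXC1, PRRX1, TWIST2 and ZEB2. A match of letters is a description and not a bound site. The first ZEB1 window, chr10:31318167-31318416 on the plus strand, has its E-box in capitals, starting at position -57 from the RefSeq start that follows this window, 1 of 7 such starts, and 59.2% of its bases are G or C:
ZEB1: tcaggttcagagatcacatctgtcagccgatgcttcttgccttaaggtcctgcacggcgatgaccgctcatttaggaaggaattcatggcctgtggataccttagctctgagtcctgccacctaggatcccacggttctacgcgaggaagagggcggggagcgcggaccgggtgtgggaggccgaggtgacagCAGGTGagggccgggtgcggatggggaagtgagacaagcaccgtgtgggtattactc
The FOXC1 window, chr6:1609665-1609914 on the plus strand, has no E-box and 76.8% G or C:
FOXC1: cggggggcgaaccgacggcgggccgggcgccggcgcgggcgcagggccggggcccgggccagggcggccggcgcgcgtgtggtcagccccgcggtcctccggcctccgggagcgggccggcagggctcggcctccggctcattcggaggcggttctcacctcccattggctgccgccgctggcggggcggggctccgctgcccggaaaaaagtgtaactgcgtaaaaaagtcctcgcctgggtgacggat
Both microRNAs of the miR-200 cluster on chromosome 12, at chr12:6963742-6963764 and chr12:6964155-6964176 on the plus strand, are given with the seed, bases 2 to 8, in capitals. Their host transcript MIR200CHG had 1 count in all 9 libraries together, in Carbo 1; poly-T selected libraries of this kind do not measure the mature microRNAs.
The 2 seeds are not identical:
hsa-miR-200c-3p: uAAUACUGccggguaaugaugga
hsa-miR-141-3p: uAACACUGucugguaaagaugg

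Total counts ran from 13851760 to 15533668 per library. Levels are given as CPM, counts scaled by edgeR to a common library size with TMM factors. A gene is called where edgeR's quasi-likelihood test, adjusted by Benjamini-Hochberg over the 16450 genes, gives a p under 0.05. The log2 fold changes are differences on the log2 scale with the standard error (SE) of the fit, and ± marks the standard deviation (SD) over n = 3 libraries. The 3 comparisons share libraries with each other, so they are not independent. All 9 fixed markers of SKOV3 and epithelial cells exceeded 1 CPM. Their summed level was 2617 to 3021 CPM in Carbo+COM33, 3438 to 3762 CPM in Carbo and 3598 to 3774 CPM in control. Of 9 stromal markers 1, COL1A1, exceeded 1 CPM, with sums over the list of 6.25 to 13.2 CPM in Carbo+COM33, 10.5 to 40.1 CPM in Carbo and 10.4 to 40.4 CPM in control. Of 7 blood markers 6 have a row, 0 exceeded 1 CPM and their sum stayed at or under 0.798 CPM; of 5 endothelial markers 1, KDR, exceeded 1 CPM. Libraries differed in their weight: without Carbo 1, 1034 genes were called in Carbo vs control, against 0 with all 9 libraries.

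SKOV3 cells carried the transcripts of the 9 measured factors at very unequal levels. Per length, in the deposited FPKM values, SNAI2 led with a mean of 58.4 (45.8 to 72.7 over the 9 libraries), which was 56.0% of the sum of the 9 means and higher than 96.8% of the tested genes. FOXC1 followed with 17.2 FPKM (12.8 to 21.7), ZEB1 with 12.7 FPKM (10.7 to 14.9) and TWIST2 with 9.43 FPKM (8.16 to 10.9). TWIST1 stood at 4.22 FPKM (2.95 to 5.28), and ZEB2 at 1.24 FPKM (1.124 to 1.48). The ranges of FOXC1 and ZEB1 overlapped, as did those of ZEB1 and TWIST2. Within libraries, FOXC1 was above ZEB1 in 8 of 9 and ZEB1 above TWIST2 in 9 of 9. SNAI2 and FOXC1 did not overlap, nor did TWIST2 and TWIST1, TWIST1 and ZEB2, or ZEB2 and SNAI3.

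The lowest places were held by SNAI3 with 0.478 FPKM (0.167 to 0.877), SNAI1 with 0.420 FPKM (0.246 to 0.654) and PRRX1 with 0.193 FPKM (0.106 to 0.292). The ranges of SNAI3 and SNAI1 overlapped, and so did those of SNAI1 and PRRX1. SNAI3 was above SNAI1 in 4 of 9 libraries, so their order is not settled, while SNAI1 was above PRRX1 in 9 of 9. SNAI1, a classical repressor of E-cadherin, had 93 counts in all 9 libraries together. SNAI3 had 109 counts and PRRX1 208 counts, so counting error alone is wide for these 3 genes. FPKM divides by the union of a gene's exons, which spans 25058 bp for ZEB2 and 3392 bp for SNAI2, so a transcript shorter than the union has its level understated.

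**Figure D1:**
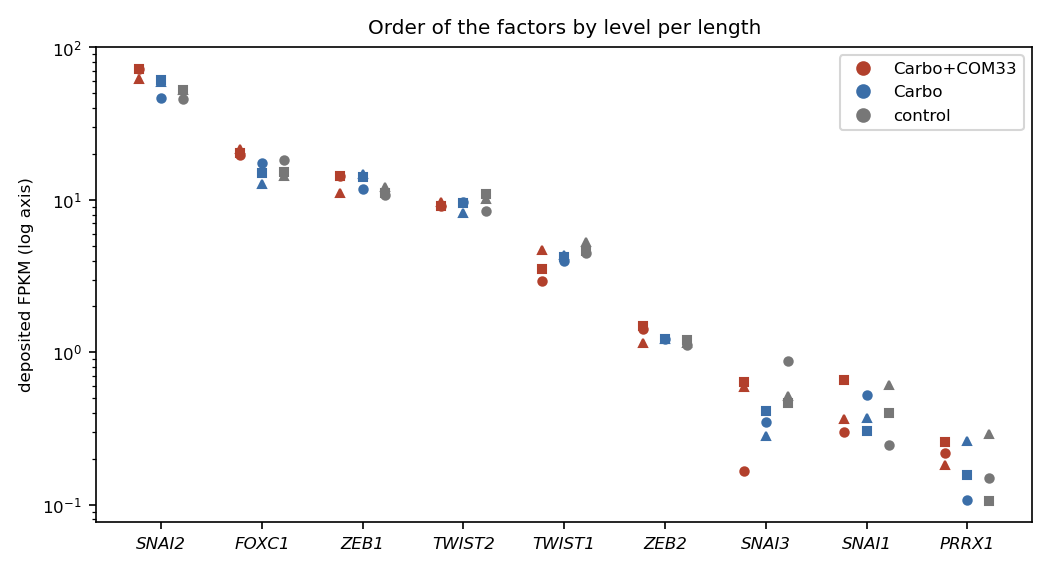
Deposited FPKM (log axis) of the 9 measured factors in each of the 9 libraries, in order of their mean; colours mark the groups and circles, squares and triangles mark replicates 1, 2 and 3. SNAI2 lies above every other factor in each library, at 45.8 to 72.7 FPKM, and SNAI3, SNAI1 and PRRX1 lie under 1 FPKM.

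Adding COM33 to carboplatin was accompanied by higher FOXC1. FOXC1 (ENSG00000054598, chromosome 6, 1609972 to 1613897, plus strand, GRCh38) had 78.5, 80.9 and 85.9 CPM in Carbo+COM33, against 68.5, 58.1 and 50.2 CPM in Carbo. The lowest Carbo+COM33 library lay above the highest Carbo library. FOXC1 averaged 81.8 ± 3.79 CPM in Carbo+COM33 and 58.9 ± 9.18 CPM in Carbo (SD, n = 3 each), a rise of 1.39-fold (log2 fold change 0.47, SE 0.121, edgeR adjusted p = 0.0425). It was the 1 called member of 9 tested in Carbo+COM33 vs Carbo, where 816 of 16450 genes, 4.96%, were called, 2.43% upward and 2.53% downward. This call lies close to the threshold: it held without control 1 or Carbo 1 and was lost without any of the other 7 libraries. The adjusted p reached 0.175 without Carbo 2, 0.161 without Carbo 3, and 0.107, 0.120 and 0.103 without Carbo+COM33 1, 2 and 3, with log2 fold changes of 0.37 to 0.59 over the 9 removals.

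SNAI2 (ENSG00000019549, chromosome 8, 48917604 to 48921740, minus strand) showed separated groups without passing the test. It had 250.2, 249 and 213 CPM in Carbo+COM33, against 156, 203 and 202 CPM in Carbo. Carbo+COM33 3 exceeded the highest Carbo library by the smallest margin, and Carbo 1 was the lowest of the 6. The means were 238 ± 20.9 CPM in Carbo+COM33 and 187 ± 27.0 CPM in Carbo (SD, n = 3 each; log2 fold change 0.34, SE 0.11, edgeR adjusted p = 0.0901). After a correction of each library for GC content and exon length (the GC and length correction), SNAI2 was called (log2 fold change 0.39, edgeR adjusted p = 0.0169), as it was by DESeq2 (adjusted p = 0.0410). These 2 fits called 1234 and 1331 genes, against the 816 given above. Of 11 alternative fits 4 called SNAI2. Of the 9 removals of 1 library 0 did so (edgeR adjusted p = 0.0723 to 0.232). Groups did not overlap for 2 of the 9 members, SNAI2 and FOXC1, and for 23.6% of all tested genes.

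ZEB1 (ENSG00000148516, chromosome 10, 31318495 to 31529814, plus strand) stood at nearly the same mean in both treated groups. Its levels were 126, 126 and 96.7 CPM in Carbo+COM33 and 101, 120 and 129 CPM in Carbo. One library of each group, Carbo+COM33 3 and Carbo 1, lay under the rest. The difference was -0.008 on the log2 scale with a 95% interval of -0.26 to 0.24, so a change of either sign within these bounds remains possible. ZEB2 (ENSG00000169554, chromosome 2, 144364364 to 144524583, minus strand) had 36.4, 37.4 and 29.04 CPM in Carbo+COM33, against 30.4, 30.4 and 30.5 CPM in Carbo. Its groups overlapped through Carbo+COM33 3, and the log2 fold change of 0.17 (95% interval -0.06 to 0.40) was not called (edgeR adjusted p = 0.358).

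TWIST1 (ENSG00000122691, chromosome 7, 19020991 to 19117672, minus strand) had 6.10, 7.18 and 9.68 CPM in Carbo+COM33, against 7.99, 8.45 and 8.77 CPM in Carbo. The Carbo+COM33 libraries lay on both sides of the Carbo range (log2 fold change -0.13, 95% interval -0.51 to 0.24). TWIST2 (ENSG00000233608, chromosome 2, 238848032 to 238910543, plus strand) had 17.5, 17.2 and 18.3 CPM in Carbo+COM33, against 18.1, 17.8 and 15.3 CPM in Carbo. These groups overlapped as well (log2 fold change 0.05, 95% interval -0.21 to 0.31), and with the GC and length correction the value was -0.007.

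The 3 scarce members gave wide intervals. SNAI1 (ENSG00000124216, chromosome 20, 49982999 to 49988886, plus strand) had 7, 16 and 9 counts in Carbo+COM33, against 13, 8 and 9 in Carbo (log2 fold change 0.17, 95% interval -0.81 to 1.16). SNAI3 (ENSG00000185669, chromosome 16, 88677682 to 88686493, minus strand) had 4, 16 and 15 counts in Carbo+COM33, against 9, 11 and 7 in Carbo (0.45, 95% interval -0.61 to 1.51). PRRX1 (ENSG00000116132, chromosome 1, 170662728 to 170739419, plus strand) had 25, 31 and 22 counts in Carbo+COM33, against 13, 20 and 31 in Carbo (0.36, 95% interval -0.51 to 1.24). In each of these genes the groups overlapped, and a difference within the interval was not detectable with these libraries. Over the 9 members, 7 log2 fold changes were above 0 and 2 below it, with a median of 0.17 beside -0.006 for all tested genes. The median absolute log2 fold change was 0.17 for the members and 0.18 for all tested genes.

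**Figure D2:**
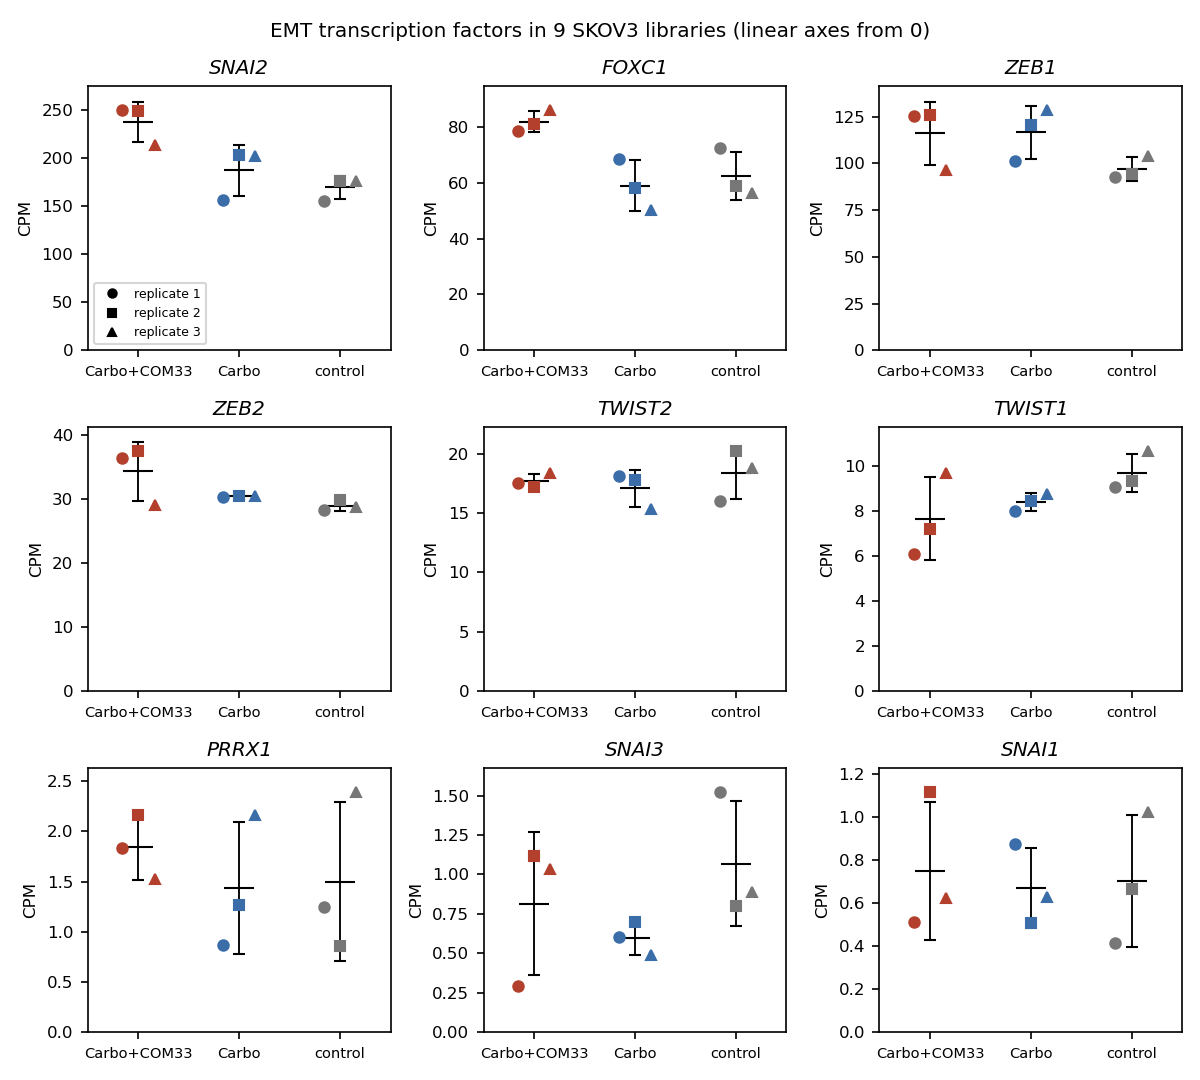
CPM of each measured factor in every library, for Carbo+COM33, Carbo and control from left to right (linear axes starting at 0); symbols mark the replicates, horizontal lines the mean and bars the SD over 3 libraries. FOXC1 in Carbo+COM33 (78.5 to 85.9 CPM) and SNAI2 in Carbo+COM33 (213 to 250.2 CPM) lie above all libraries of the other groups.

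Compared with control, the cells given carboplatin with COM33 had higher SNAI2. SNAI2 had 250.2, 249 and 213 CPM in Carbo+COM33, against 156, 177 and 176 CPM in control. The 3 Carbo+COM33 libraries lay above the 3 control libraries. The means were 238 ± 20.9 CPM in Carbo+COM33 and 170 ± 12.0 CPM in control (SD, n = 3 each), a rise of 1.4-fold (log2 fold change 0.49, SE 0.11, edgeR adjusted p = 0.0249). It was the 1 called member of 9 tested, where 1035 of 16450 genes, 6.29%, were called, 3.2% upward and 3.09% downward. The call was lost without control 2 (adjusted p = 0.0962), control 3 (0.0745), Carbo+COM33 1 (0.124) or Carbo+COM33 2 (0.109), and held without each of the other 5 libraries; the log2 fold change ran from 0.43 to 0.56 over the 9 removals. On the deposited FPKM scale, limma gave adjusted p-values of 0.0558 and 0.0557 with pseudocounts of 0.1 and 1.

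FOXC1 was on the other side of the threshold here. It had 78.5, 80.9 and 85.9 CPM in Carbo+COM33, against 72.3, 59.0 and 56.1 CPM in control. The groups did not overlap, with control 1 nearest to the Carbo+COM33 libraries. The means were 81.8 ± 3.79 CPM in Carbo+COM33 and 62.5 ± 8.63 CPM in control (SD, n = 3 each; log2 fold change 0.39, SE 0.121, edgeR adjusted p = 0.0733). FOXC1 was called with the GC and length correction (0.48, edgeR adjusted p = 0.0242), by DESeq2 (adjusted p = 0.0307) and without control 1 (0.51, edgeR adjusted p = 0.0309). In this order these fits called 946, 1558 and 1091 genes, against the 1035 given above. Of 11 alternative fits 6 called FOXC1. Of the 9 removals of 1 library 3 did so (edgeR adjusted p = 0.0250 to 0.261 over all 9). Groups did not overlap for 2 of the 9 members, SNAI2 and FOXC1, and for 28.7% of all tested genes.

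For ZEB1, ZEB2 and TWIST1 the comparison with control depended on library Carbo+COM33 3. Of the 9 removals of 1 library, 1 called each of these genes, the removal of Carbo+COM33 3. It is singled out here after seeing the values. ZEB1 had 126, 126 and 96.7 CPM in Carbo+COM33, against 92.6, 94.3 and 104 CPM in control (log2 fold change 0.26, SE 0.116, edgeR adjusted p = 0.197). Replicates 1 and 2 lay above all control libraries and replicate 3 lay among them. Without Carbo+COM33 3 the log2 fold change was 0.37 (edgeR adjusted p = 0.0368). Over the 9 removals it ran from 0.20 to 0.37, with an edgeR adjusted p of up to 0.507. The fit without Carbo+COM33 3, used below for ZEB2 and TWIST1 as well, called 2208 of the 16450 tested genes against control. With all 9 libraries 1035 were called.

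ZEB2 had 36.4, 37.4 and 29.04 CPM in Carbo+COM33, against 28.2, 29.8 and 28.7 CPM in control (log2 fold change 0.25, SE 0.106, edgeR adjusted p = 0.176), and a log2 fold change of 0.35 without Carbo+COM33 3 (edgeR adjusted p = 0.0234). Over the 9 removals its log2 fold change ran from 0.18 to 0.35, with an edgeR adjusted p of up to 0.467. TWIST1 ran the other way, with 6.10, 7.18 and 9.68 CPM in Carbo+COM33, against 9.06, 9.31 and 10.7 CPM in control. Its log2 fold change was -0.34 (SE 0.172, edgeR adjusted p = 0.258), and -0.54 without Carbo+COM33 3 (edgeR adjusted p = 0.0465). The 9 removals gave -0.54 to -0.20 for TWIST1, with an edgeR adjusted p of up to 0.643. In all 3 genes that library was the one nearest to the control level within its group.

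The remaining members overlapped between Carbo+COM33 and control. TWIST2 had 17.5, 17.2 and 18.3 CPM in Carbo+COM33, against 15.98, 20.2 and 18.8 CPM in control (log2 fold change -0.05, 95% interval -0.31 to 0.21). SNAI1, SNAI3 and PRRX1 had log2 fold changes of 0.10, -0.37 and 0.30, with 95% intervals of -0.88 to 1.08, -1.35 to 0.61 and -0.58 to 1.17. Of the 9 members, 6 had a log2 fold change above 0 and 3 below it, with a median of 0.25 beside -0.01 for all tested genes. The median absolute value was 0.30 for the members and 0.19 for all tested genes.

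**Figure D3:**
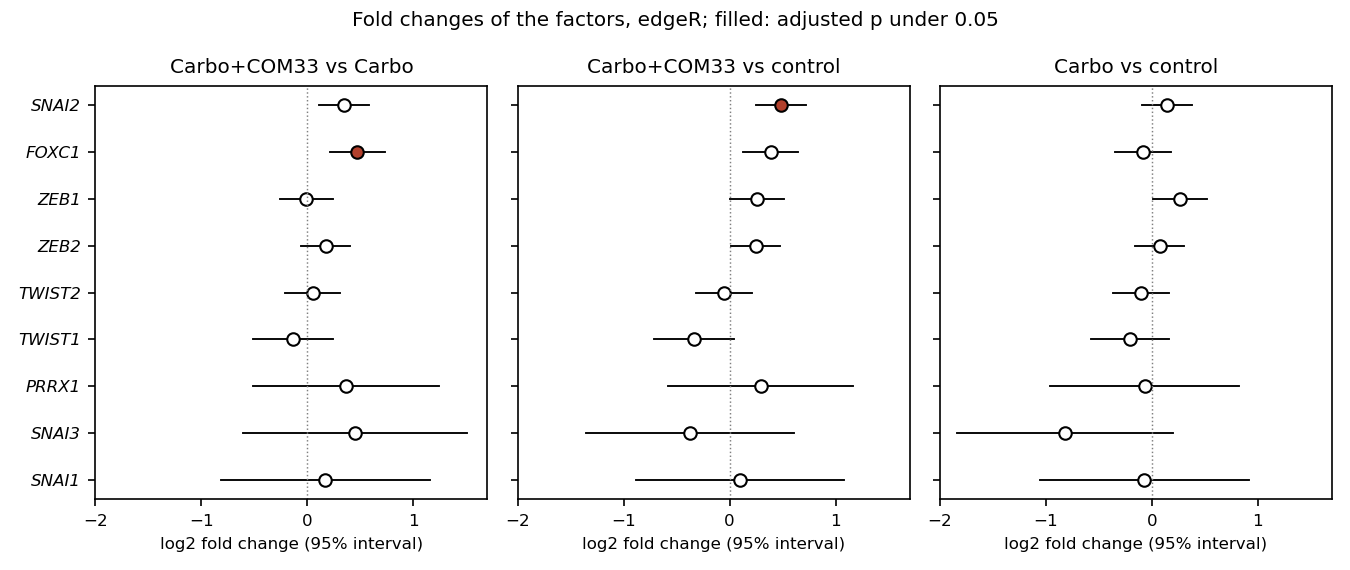
Log2 fold changes of the 9 measured factors in the 3 comparisons, from edgeR, with 95% intervals as lines; filled points mark an adjusted p under 0.05. FOXC1 in Carbo+COM33 vs Carbo (0.47) and SNAI2 in Carbo+COM33 vs control (0.49) are the filled points, and the intervals of SNAI1, SNAI3 and PRRX1 are the widest.

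Carboplatin alone was not accompanied by a called change in any of the 9 factors in the unpaired test. ZEB1 was called where replicate numbers were used as pairs, a pairing read from these data and not stated by the labels. In Carbo vs control edgeR called 0 members and 0 of the 16450 genes, 0%. At an unadjusted p under 0.05 there were 1 member (ZEB1) and 2748 genes, 16.7%, and DESeq2 called 0 members and 128 genes. The same-numbered Carbo and control libraries deviated together from their group means, so this comparison was also fitted with the replicate number as a block. That fit called 3739 genes, 22.7% of those tested (11.2% upward and 11.5% downward), and 1 member, ZEB1. With the GC and length correction added it called 1690 genes, 10.3%, and 0 members.

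ZEB1 had 101, 120 and 129 CPM in Carbo, against 92.6, 94.3 and 104 CPM in control. It was higher in Carbo in 3 of 3 pairs, by 0.13, 0.35 and 0.30 on the log2 scale for replicates 1, 2 and 3, although the groups overlap through Carbo 1. The share of all tested genes with 1 direction in 3 of 3 pairs is not given here. Such agreement, for ZEB1 and for the genes below, is a description. The log2 fold change of ZEB1 was 0.27 without the block (SE 0.116, edgeR adjusted p = 0.281) and 0.26 with it (SE 0.0548, edgeR adjusted p = 0.00258). The blocked call was lost without pair 2 (edgeR adjusted p = 0.0848). The longest annotated transcript of ZEB1 holds 38.5% G or C. With the GC and length correction its log2 fold change was 0.09, with an edgeR adjusted p of 0.709 without the block and 0.322 with it.

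SNAI2 had 156, 203 and 202 CPM in Carbo, against 156, 177 and 176 CPM in control. It was higher in 3 of 3 pairs, by 0.004 on the log2 scale in the first and 0.20 in each of the others (log2 fold change 0.14, edgeR adjusted p = 0.516, and 0.0662 with the replicate block). In the blocked fit without pair 1 it was called (0.20, edgeR adjusted p = 0.00144). That fit leaves out the pair with the smallest difference and was chosen after seeing the data. It has 1 residual degree of freedom and called 4338 of the 16450 tested genes. With the GC and length correction over all 9 libraries, the log2 fold change of SNAI2 was 0.008.

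TWIST1 was lower in Carbo in 3 of 3 pairs, with 7.99, 8.45 and 8.77 CPM in Carbo, against 9.06, 9.31 and 10.7 CPM in control. The groups did not overlap, yet the log2 fold change of -0.20 (SE 0.171) was not called (edgeR adjusted p = 0.556). With the GC and length correction it was -0.04, without and with the block. ZEB2 had 30.4, 30.4 and 30.5 CPM in Carbo, against 28.2, 29.8 and 28.7 CPM in control, again without overlap and higher in 3 of 3 pairs (log2 fold change 0.07, edgeR adjusted p = 0.748); with that correction the value was -0.08. SNAI3, lower in 3 of 3 pairs, had 9, 11 and 7 counts in Carbo, against 22, 12 and 13 in control (log2 fold change -0.82, SE 0.471, edgeR adjusted p = 0.386). Groups thus did not overlap for 3 of the 9 members, while 22.5% of all tested genes did the same.

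FOXC1, called in Carbo+COM33 vs Carbo, had 68.5, 58.1 and 50.2 CPM in Carbo, against 72.3, 59.0 and 56.1 CPM in control (log2 fold change -0.08, 95% interval -0.35 to 0.18). It was lower in Carbo in 3 of 3 pairs, with log2 differences of -0.08, -0.02 and -0.16, was not called with the block (edgeR adjusted p = 0.344), and stood at 0.03 with the GC and length correction. TWIST2, SNAI1 and PRRX1 had log2 fold changes of -0.10, -0.07 and -0.07, with intervals that span 0. Of the 9 members 3 were above 0 and 6 below it, with a median of -0.07 beside 0.0009 for all genes; with the GC and length correction 5 were above and 4 below. The median absolute log2 fold change was 0.10 for the members and 0.17 for all tested genes.

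Some members share their locus with an antisense gene, and no source here states whether counting used strand, so reads of overlapping exons cannot be assigned with certainty. ZEB1-AS1, a long noncoding RNA that overlaps the head of ZEB1, had 21.98, 24.3 and 21.6 CPM in Carbo+COM33, 21.4, 18.0 and 23.1 CPM in Carbo and 17.1, 17.6 and 17.4 CPM in control. Both treated groups lay above control without overlap. Its log2 fold change was 0.38 in Carbo+COM33 vs control (SE 0.115, edgeR adjusted p = 0.0666) and 0.26 in Carbo vs control (SE 0.115, edgeR adjusted p = 0.281, and 0.0723 with the block), so none of these was called.

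SNAI3-AS1, which covers SNAI3 on the other strand, had 3.90, 3.70 and 4.84 CPM in Carbo+COM33, 4.03, 3.05 and 3.55 CPM in Carbo and 6.71, 5.32 and 5.39 CPM in control. Control was the highest group with no overlap. In Carbo vs control the log2 fold change was -0.71 (SE 0.194), not called without the block (edgeR adjusted p = 0.220). With the block SNAI3-AS1 was called (edgeR adjusted p = 0.00964), in a fit that called 22.7% of all genes. It was lower in 3 of 3 pairs, and its value with the GC and length correction is not given here. SNAI3 itself stood at -0.82 in Carbo vs control, not called, and how many reads SNAI3 and SNAI3-AS1 share was not tested. AC003986.2, an antisense gene inside TWIST1, had 16 counts in all, and FOXCUT, a noncoding gene before FOXC1, had 54.

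The standard readouts of these factors were not called in any of the 3 unpaired comparisons. CDH1 (E-cadherin) had 1, 0 and 0 counts in Carbo+COM33, 0, 1 and 0 in Carbo and 1, 2 and 6 in control, too few to be tested. CDH2 (N-cadherin) had log2 fold changes of -0.20 against Carbo and 0.03 against control in Carbo+COM33, and 0.23 in Carbo vs control. VIM (vimentin, an intermediate filament of mesenchymal cells) had -0.10, 0.16 and 0.26 in the same order of comparisons, FN1 (fibronectin) -0.28, -0.19 and 0.09, and EPCAM, an epithelial adhesion molecule, -0.18, -0.19 and -0.009. With the replicate block, CDH2 and VIM rose in Carbo vs control (edgeR adjusted p = 0.0111 and 0.00818), in a fit that called 22.7% of all genes. With the GC and length correction added, that fit called 10.3% of all genes. The values of CDH2 and VIM with this correction are not given here. EPCAM stayed detectable, at 15.8 to 23.1 CPM over the 9 libraries, beside a CDH1 of at most 6 counts. In bulk RNA, a change in the share of cells of one state and a change of RNA per cell cannot be told apart.

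Genes around the factors were followed in 8 lists of partners, regulators and targets, with 168 distinct tested genes. In Carbo+COM33 vs Carbo 15 of them, 8.93%, were called beside 4.96% of all genes, and in Carbo+COM33 vs control 18, 10.7%, beside 6.29%. The lists were chosen with earlier results of these data known, so these shares cannot test whether the lists changed more than other genes. In Carbo vs control 0 were called without the block. These calls depended on single libraries: 2 of the 15, ID1 and KLF5, and 1 of the 18, SOX4, kept their call whichever of the 9 libraries was left out. Without Carbo 2, 2 of the 15 were still called; without control 2 or without Carbo+COM33 1, 1 of the 18. The other 13 and 17 each lost their call without at least 1 library, with a highest adjusted p per gene of 0.0511 to 0.199 against Carbo and 0.0757 to 0.198 against control.

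The ID proteins, the inhibitors of helix-loop-helix factors such as TWIST1, held the largest called changes of these lists. Of 4 members 3 fell and 0 rose in Carbo+COM33 vs Carbo (median log2 fold change -1.53, beside -0.006 over all genes). Of all genes 2.53% were called downward there. In Carbo+COM33 vs control 2 fell (median -1.09, beside -0.01), where 3.09% of all genes were called downward. ID1 had 46.3, 55.7 and 55.9 CPM in Carbo+COM33, 104, 191 and 221 CPM in Carbo and 84.9, 157 and 149.6 CPM in control. The 3 Carbo+COM33 libraries lay under all 6 others, and replicate 1 was the lowest of each group. The log2 fold change was -1.71 against Carbo (SE 0.258, edgeR adjusted p = 0.00440) and -1.31 against control (SE 0.257, edgeR adjusted p = 0.0146); the second was lost without control 2, control 3, Carbo+COM33 1 or Carbo+COM33 2 (adjusted p up to 0.0915).

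ID3 had 7.64, 11.6 and 12.4 CPM in Carbo+COM33, 18.9, 36.8 and 41.8 CPM in Carbo and 20.3, 30.3 and 35.3 CPM in control, again without overlap. It fell by 1.62 on the log2 scale against Carbo (adjusted p up to 0.0548, without Carbo 2 or Carbo+COM33 1) and by 1.43 against control (up to 0.0936, without control 2 or 3 or Carbo+COM33 1 or 2). ID4 had 5.59, 5.30 and 4.01 CPM in Carbo+COM33 and 8.60, 12.6 and 19.2 CPM in Carbo, and fell by 1.44 on the log2 scale, a call lost (adjusted p up to 0.0683) without Carbo 2 or 3 or any 1 Carbo+COM33 library; against control, at 5.74, 8.04 and 10.99 CPM, its value of -0.74 was not called. ID2 stood at -1.02 against Carbo (edgeR adjusted p = 0.0609) and -0.86 against control, neither called. Of the E proteins that ID proteins take up, TCF3 stood at 0.10 and TCF12 at -0.16 against Carbo, neither called. With the replicate block 2 of the 4 ID genes rose in Carbo vs control and 0 fell (22.7% of all genes called), and 3 rose in that fit with the GC and length correction (10.3%).

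Of 24 tested partners and cofactors, 3 fell and 0 rose in Carbo+COM33 vs Carbo (median -0.15, 2.53% of all genes called downward). In Carbo+COM33 vs control 2 fell (median -0.05, 3.09% of all genes called downward). SIN3A, a scaffold of histone deacetylase complexes, had 85.1, 90.0 and 83.0 CPM in Carbo+COM33, against 111, 120 and 126 CPM in Carbo (log2 fold change -0.47, SE 0.0795, edgeR adjusted p = 0.00667, and 0.0516 without Carbo 2). RCOR1 (CoREST), which ties the demethylase KDM1A to repressors, fell by 0.30 on the log2 scale, and AJUBA, a LIM protein that binds SNAI factors, by 0.49. Against control AJUBA fell by 0.64 and SMARCA4, a chromatin remodelling ATPase that works with ZEB1, by 0.31. With the block 8 of the 24 rose and 5 fell in Carbo vs control (22.7% of all genes called), and 3 and 1 with the GC and length correction (10.3%).

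Among 24 genes of protein turnover and kinases that act on these factors, 0 were called in Carbo+COM33 vs Carbo (median -0.03). In Carbo+COM33 vs control 1 rose (median 0.06, 3.2% of all genes called upward). That gene was USP10, a deubiquitinase, at 0.32. The blocked fit of Carbo vs control had 6 of the 24 rising and 1 falling (22.7% of all genes called), and 2 and 1 with the correction (10.3%). Of 28 upstream signals 2 fell against Carbo (median 0.02, 2.53% of all genes called downward). They were the NOTCH ligand JAG1, by 0.37, and the receptor TGFBR2, by 0.36 on the log2 scale. Against control 1 rose and 1 fell (median -0.06, 3.2% of all genes called upward and 3.09% downward). These were the receptor tyrosine kinase MET at 0.33 and the cytokine TGFB1 at -0.55. For Carbo vs control the block gave 6 of the 28 rising and 3 falling (22.7% of all genes called), and 5 and 3 with the correction (10.3%).

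Among 21 other EMT-related transcription factors, 1 rose and 1 fell against Carbo (median 0.02, 2.43% of all genes called upward and 2.53% downward). In Carbo+COM33 vs control 2 rose and 2 fell (median -0.02, 3.2% of all genes called upward and 3.09% downward). SOX4, an SRY-box factor, had 87.7, 107 and 103 CPM in Carbo+COM33, against 162, 209 and 204 CPM in control (log2 fold change -0.95, SE 0.138, edgeR adjusted p = 0.00339), and its change against Carbo was -0.83 (edgeR adjusted p = 0.00618, and 0.0511 without Carbo 2). HMGA2, an architectural chromatin protein, had 84.0, 70.5 and 73.2 CPM in Carbo+COM33, against 61.7, 49.5 and 52.6 CPM in Carbo, a log2 fold change of 0.47, and 0.43 against control. Against control ETS1, an ETS-family factor, rose by 0.40, and FOXQ1, a forkhead factor, fell by 1.00 on the log2 scale. Carbo vs control with the block had 3 of the 21 rising and 4 falling (22.7% of all genes called), and 3 and 2 with the correction (10.3%).

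Of 15 tested epithelial transcription and splicing factors 2 fell and 0 rose against Carbo (median -0.35, 2.53% of all genes called downward). In Carbo+COM33 vs control 1 rose and 2 fell (median -0.28, 3.2% of all genes called upward and 3.09% downward). KLF5, a zinc finger factor of epithelia, had 177, 182 and 168 CPM in Carbo+COM33, against 237, 277 and 299 CPM in Carbo (log2 fold change -0.62, SE 0.0920, edgeR adjusted p = 0.00379). TFAP2A, an AP-2 factor, fell by 0.84 against Carbo and by 0.63 against control on the log2 scale. RBM47, an RNA-binding protein, rose by 0.65 against control. With the block 4 of the 15 rose and 1 fell in Carbo vs control (22.7% of all genes called), and 0 and 0 with the correction (10.3%).

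In the unpaired edgeR test of Carbo+COM33, epithelial genes that SNAI or ZEB factors are known to repress were lower where called. Of 27 tested, 3 fell and 0 rose in Carbo+COM33 vs Carbo (median -0.15, 2.53% of all genes called downward). In Carbo+COM33 vs control 4 fell and 0 rose (median -0.23, 3.09% of all genes called downward). KRT7, a keratin, had 116, 152 and 134 CPM in Carbo+COM33, 206, 367 and 356 CPM in Carbo and 214, 344 and 353 CPM in control. Replicate 1 was the lowest of each group, and the Carbo+COM33 libraries lay under all others (log2 fold change -1.21 against Carbo, edgeR adjusted p = 0.00893, and -1.18 against control, edgeR adjusted p = 0.0112). Both calls were lost without Carbo+COM33 1, the first also without Carbo 2 (adjusted p up to 0.0610) and the second without control 2 or 3 (adjusted p up to 0.0774). JUP (plakoglobin, of desmosomes and adherens junctions) fell by 0.72 against Carbo and 0.71 against control on the log2 scale, and LLGL2, a polarity protein, by 0.64 and 0.60. CLDN7, a claudin of tight junctions, fell by 0.99 against control. Each of these calls of JUP, LLGL2 and CLDN7 was lost without at least 1 library, with a highest edgeR adjusted p of 0.0750 to 0.123.

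Of 29 tested genes that the factors are known to raise, 0 were called against Carbo (median -0.15). In Carbo+COM33 vs control 1, TGFB1, fell (median -0.27, 3.09% of all genes called downward). COL1A1, which is also the 1 detected stromal marker, stood at -1.59 against Carbo and -1.56 against control (edgeR adjusted p = 0.0956 and 0.0896), neither called. In Carbo vs control with the block 3 of the 27 repressed targets rose and 6 fell, and 6 of the 29 raised targets rose and 7 fell (22.7% of all genes called); with the correction these counts were 6 and 1, and 4 and 3 (10.3%). The summed SKOV3 and epithelial markers were lower in Carbo+COM33 than in the other groups without overlap, as given above. Of their counts 63.0% came from ERBB2, at 1483 to 1797 CPM in Carbo+COM33, 2235 to 2528 CPM in Carbo and 2269 to 2399 CPM in control, and 7.43% from KRT7. The 8 markers without ERBB2 summed to 1134 to 1224 CPM in Carbo+COM33, 1203 to 1295 CPM in Carbo and 1329 to 1375 CPM in control, so Carbo+COM33 and Carbo overlapped. The part of these markers in the results was not tested.

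**Figure D4:**
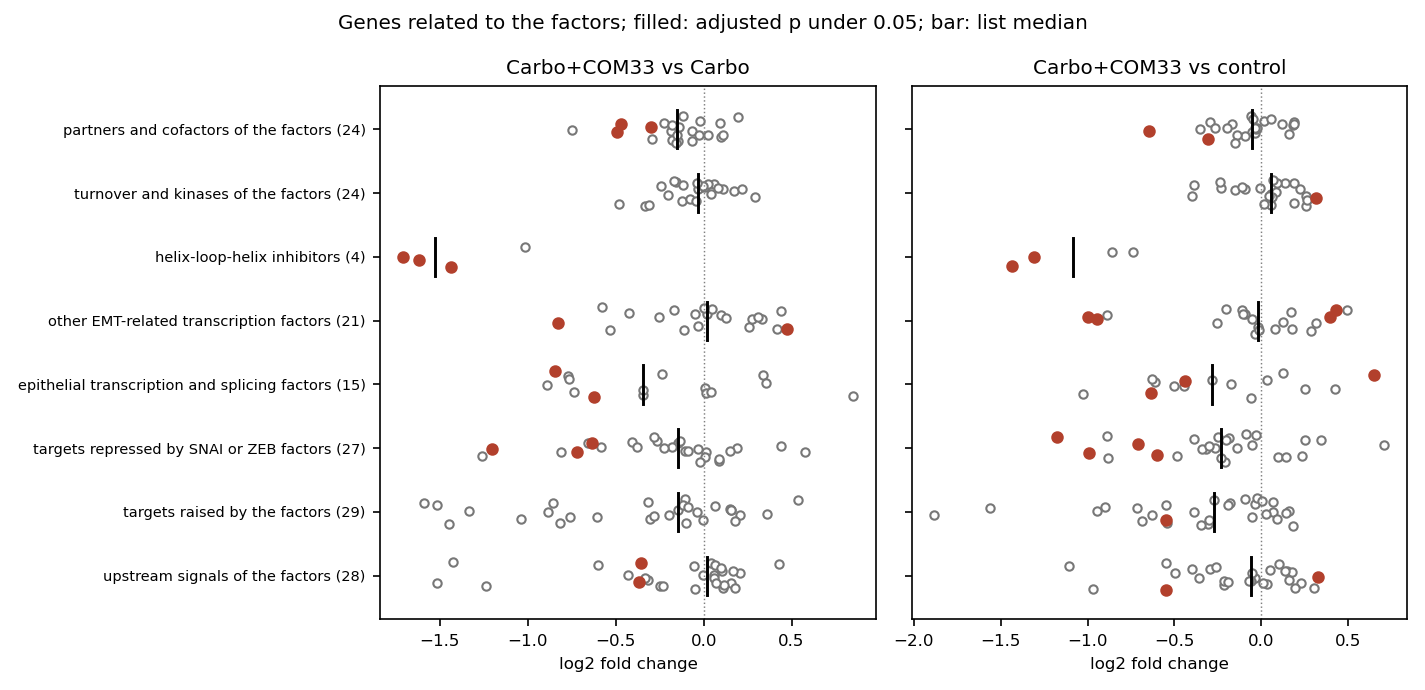
Log2 fold changes of the tested genes of 8 related lists (number tested in brackets) in Carbo+COM33, against Carbo (left) and against control (right), with list medians as bars; filled points mark an edgeR adjusted p under 0.05. The helix-loop-helix inhibitors have the lowest medians, -1.53 and -1.09.

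The members did not all follow 1 profile over the libraries. Pearson's r of log2 CPM over the 9 libraries was 0.80 between SNAI2 and ZEB2, 0.74 between SNAI2 and ZEB1 and -0.88 between TWIST1 and ZEB2, while FOXC1 and ZEB1 stood at -0.14. These values describe 9 libraries that fall into 3 groups and share library weights, and carry no test. By the same measure over all 16450 genes, the closest profiles to ZEB1 were those of CEP290, MTATP6P1 and WTAP (r = 0.984 to 0.992), and the closest to FOXC1 were SYNE3, MGLL and GCNT3 (0.984 to 0.991). For SNAI2 they were RNF6, ADAMTS9 and TTC19 (0.965 to 0.976), for ZEB2 VPS8, KANTR and FEM1C (0.955 to 0.970), and for TWIST1 IFI6, GPR137 and RBM15B (0.947 to 0.949). For TWIST2 they were IL10RB, PTPN18 and COL6A3, for PRRX1 FBXO22, ZNF879 and GNL2, for SNAI3 PATZ1, AC024075.3 and C6orf226, and for SNAI1 PWAR6, FAM21EP and AL021707.2, with r between 0.902 and 0.965. The number of genes with r over 0.9 was 399 for FOXC1, 274 for ZEB1, 74 for SNAI2, 72 for TWIST1 and 60 for ZEB2, and 3 to 7 for the other 4. MTATP6P1 and FAM21EP are pseudogenes whose reads can be shared with near-identical copies, so their place in these lists is uncertain.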

How the data were processed

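Per the labels' protocols, RNA was extracted with TRIzol, selected with poly-T beads and sequenced as paired reads on an Illumina instrument. The authors deposited read counts per gene and FPKM values for the 9 libraries. The submitters' processing notes name the tools DESeq2 1.26.0, HTSeq 0.11.2 and HISAT2, and the build GRCh38; settings, strand included, are not given in the sources used here. All 32378 identifiers and names matched GENCODE 29. The deposited FPKM equalled counts divided by the exon union (32283 genes within 0.5 bp) and the library total.

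Counts were tested with edgeR 4.0.16 (R 4.3.3): filterByExpr (16450 genes), TMM factors of 0.982 to 1.01, 1 coefficient per group over all 9 libraries, 6 residual degrees of freedom, common dispersion 0.0133. The SE is the log2 fold change divided by the square root of F; 95% intervals use the moderated degrees of freedom. The unpaired fit of Carbo vs control was tested on simulated counts, drawn independently at a dispersion of 0.0133. These hold no replicate or GC structure, so the blocked and corrected fits were not covered. Over 6607 genes with mean log2 CPM over 5, deviations of same-numbered Carbo and control libraries correlated at 0.824, 0.565 and 0.748, each over 0.1, so a fit with the replicate number as a block (6 libraries, 2 residual degrees of freedom) stands beside that comparison; the pairing is read from the data. Alternatives were DESeq2 1.42.0, limma 3.58.1 on log2 FPKM with pseudocounts of 0.1 and 1, other scalings and filters, a correction of each library for GC content and exon length, and leaving out each library.

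The members and lists were chosen with earlier results of these data known. Named are all members, annotated neighbours that overlap them, the 3 genes most correlated with each, at most the 8 largest called genes of each list, and CDH1, CDH2, VIM, EPCAM and FN1; FOXCUT, MIR200CHG, TCF3, TCF12, ID2 and COL1A1 were added after their values were seen. Sequences were read from RefSeq tables of GRCh38.p14. Figures were drawn with Python 3.11.15, pandas 2.3.3, numpy 2.4.6 and matplotlib 3.10.9.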

Additional observations from a re-analysis of the deposited data

How the results depend on the processing

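FOXC1 in Carbo+COM33 vs Carbo and SNAI2 in Carbo+COM33 vs control, the called members, kept their direction there in all alternatives run and lost their calls in some; the causes were not tested. Genes called in Carbo vs control were 0, and those called in Carbo+COM33 were 816 against Carbo and 1035 against control. In this order they became 928, 1876 and 1934 with no filter on low counts and 128, 1331 and 1558 with DESeq2. Limma called 446 against Carbo and 652 against control with a pseudocount of 0.1, and 447 and 656 with 1. The GC and length correction gave 1234 against Carbo. Leaving out 1 library gave 0 to 1034 (without Carbo 1), 120 (without Carbo 2) to 2721 (without Carbo 1), and 114 (without control 2) to 2208 (without Carbo+COM33 3).

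The replicate block gave 3739 in Carbo vs control and 502 in Carbo+COM33 vs Carbo. Same-numbered libraries did not all deviate together in the COM33 comparisons (correlations of -0.02, 0.14 and -0.39 with Carbo and 0.09, 0.10 and -0.42 with control), so there the numbers do not pair them. The block over all 9 libraries gave 0, 1554 and 1625, and the block with the GC and length correction 1690, 1057 and 1695. Leaving out pair 1, 2 or 3 from the block, chosen after seeing the data and with 1 residual degree of freedom, gave 4338, 1623 and 2842 in Carbo vs control, 1879, 280 and 1336 against Carbo and 943, 310 and 5163 against control.

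Of the members, 1 was called in Carbo vs control with the replicate block, 2, 0 and 1 in it without pair 1, 2 or 3, and 0 in the other fits. Against Carbo 2 were called with no filter, DESeq2, the GC and length correction and the block with it; 0 with the replicate block (FOXC1 at an edgeR adjusted p of 0.0875) or limma; 0 to 1 without 1 library; 1, 0 and 2 in the block without pair 1, 2 or 3. Against control 2 were called with no filter, DESeq2, the GC and length correction, the block with it, the block over all 9 libraries and the 6 libraries alone; 0 with limma; 0 to 4 without 1 library; 1, 0 and 4 in the block without pair 1, 2 or 3. Each number of members is to be read beside all genes called in its fit. Against control the 6 libraries alone called 1462 of the 16450 tested genes. The 2 fits with 4 members called 2208 (without Carbo+COM33 3) and 5163 (block without pair 3).

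Signs of log2 fold changes turned for members in comparisons where they were not called. With the GC and length correction, without and with the block, Carbo vs control became 0.064 and 0.067 for TWIST2, 0.11 and 0.14 for SNAI1, -0.084 and -0.089 for ZEB2 and 0.030 and 0.029 for FOXC1. TWIST2 in Carbo+COM33 became -0.0072 and -0.0080 against Carbo and 0.057 and 0.061 against control, and ZEB1 0.053 and 0.053 against Carbo. ZEB1 against Carbo was 0.0032 with no filter and 0.00026 with DESeq2. In some cases the sign turned in at least 1 of the 9 removals of 1 library. Over all 9 removals these log2 fold changes ran from -0.34 to 0.0099 (TWIST1 against Carbo), -0.023 to 0.094 (TWIST2 against Carbo), -0.13 to 0.024 (TWIST2 against control), -0.10 to 0.11 (ZEB1 against Carbo) and -0.20 to 0.037 (FOXC1, Carbo vs control). For SNAI1 they ran from -0.33 to 0.30 in Carbo vs control, -0.22 to 0.41 against Carbo and -0.30 to 0.47 against control, for SNAI3 from -0.66 to 0.012 against control, and for PRRX1 from -0.48 to 0.44 in Carbo vs control. In the block, leaving out pair 1 gave 0.35 for SNAI3 against control and 0.12 for PRRX1 in Carbo vs control. Leaving out pair 2 gave 0.046 for TWIST2 against control, -0.082 for PRRX1 against control, and 0.095 (Carbo vs control), -0.38 (against Carbo) and -0.29 (against control) for SNAI1. Leaving out pair 3 gave -0.046 for TWIST2 and 0.19 for ZEB1 against Carbo, and 0.33 for SNAI1 and 0.032 for PRRX1 in Carbo vs control. SNAI1, SNAI3 and PRRX1 have 4 to 35 counts per library and the widest intervals; how much of that width comes from depth was not tested.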
